A study of Homo sapiens with 12 samples.

Results

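The endoplasmic reticulum (ER) folds the proteins that a cell secretes or sends to its membranes, and 45 genes of that work were followed here, out of 60675 genes in the count table. They were taken by name: chaperones and their co-chaperones, enzymes that form disulfide bonds, the machinery of ER-associated degradation (ERAD), and the sensors and transcription factors of the ATF6 and IRE1-XBP1 arms of the unfolded protein response. The list held 46 names, of which VIMP is an older symbol of SELENOS, and all 45 genes were found. It was drawn up with earlier results of these data known. RNA was sequenced from SW1783, a human astrocytoma cell line, after 24 h with a hot water extract of Aconitum carmichaeli Debeaux (ACD) or with vehicle. The 4 groups, of 3 libraries each, received 20 µg/mL (low dose), 100 µg/mL (medium dose), 500 µg/mL (high dose) or the vehicle alone, which was PBS that held 2% DMSO. A single tumour line was used, and nothing in the labels says whether its 3 libraries per group came from separate cultures, so p-values measure the spread between these libraries, which may be technical. The treatment protocol attached to the samples describes another herb, Poria cocos, and the groups follow the sample titles and treatment labels.

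In the ER, HSPA5 (BiP) and other chaperones hold unfolded chains, oxidoreductases close disulfide bonds, and chains that do not fold are passed back to the cytosol by ERAD for destruction by the proteasome. When unfolded chains build up, a set of membrane sensors responds. ERN1 (IRE1) splices the mRNA of XBP1, ATF6 is cut to release a transcription factor, and EIF2AK3 (PERK) slows translation and raises ATF4. XBP1 and ATF6 act on ER stress elements in the promoters of chaperone and ERAD genes. Splicing of XBP1 mRNA and cutting of ATF6 do not show in gene counts, so the values below are mRNA levels alone.

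Some promoters of the members hold these elements in readable form, and those are shown first because the genes that carry them are described below. The element called ERSE was searched as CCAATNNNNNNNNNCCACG and the one called ERSE-II as ATTGGNCCACG, on both strands, in the 250 bases before the RefSeq start site (GRCh38.p14). Of 45 members, 40 had a RefSeq promoter entry. PDIA3, FKBP14, DERL1, DERL3 and SEC24D had none. Of these 40, 6 held an ERSE, against 0.0769% of 27305 promoters, and 3 held an ERSE-II, against 0.0549%. The members were taken by name from the response that acts through these elements, so this contrast describes them and tests nothing. Either element stood before 9 members. Of 18 members with an entry that were called higher at the high dose (the rule for a call follows), 8 held one. Of the other 22, 1 did, CRELD2. The window lay wholly inside the gene's own GENCODE v44 span in HSP90B1 and ERN1 among the called members. Among the others it did so in CANX, CRELD2, DERL2, DNAJB11, ERO1A, OS9, P4HB, PDIA6 and SIL1. The search was thus not alike for called and other members, and this split was not tested. Below are the promoters of the 8 called genes that hold an element, 5′ to 3′ on the gene's own strand. Capitals mark the fixed letters of each element. The stretches stop where the GENCODE v44 gene begins, since for several genes that start lies before the RefSeq one.
HERPUD1, chr16:56931892-56932141, plus strand: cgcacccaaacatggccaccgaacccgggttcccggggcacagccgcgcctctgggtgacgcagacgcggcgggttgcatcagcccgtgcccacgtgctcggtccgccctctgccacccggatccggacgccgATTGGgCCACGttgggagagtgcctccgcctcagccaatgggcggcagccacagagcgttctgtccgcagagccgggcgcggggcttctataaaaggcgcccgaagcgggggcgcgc
HSPA5, chr9:125241383-125241593, minus strand: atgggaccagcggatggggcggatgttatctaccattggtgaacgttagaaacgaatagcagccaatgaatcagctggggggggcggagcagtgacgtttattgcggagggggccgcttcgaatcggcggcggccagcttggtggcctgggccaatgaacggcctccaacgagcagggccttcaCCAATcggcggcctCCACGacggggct
XBP1, chr22:28800598-28800819, minus strand: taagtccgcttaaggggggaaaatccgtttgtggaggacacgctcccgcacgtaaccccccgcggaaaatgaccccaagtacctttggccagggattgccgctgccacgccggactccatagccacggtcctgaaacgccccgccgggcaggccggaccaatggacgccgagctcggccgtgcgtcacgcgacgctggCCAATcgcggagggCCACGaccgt
ERO1B, chr1:236282020-236282208, minus strand: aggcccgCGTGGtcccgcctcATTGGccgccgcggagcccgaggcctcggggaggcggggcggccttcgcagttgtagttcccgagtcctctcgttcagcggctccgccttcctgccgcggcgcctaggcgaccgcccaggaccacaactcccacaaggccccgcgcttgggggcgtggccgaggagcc
HYOU1, chr11:119057228-119057455, minus strand: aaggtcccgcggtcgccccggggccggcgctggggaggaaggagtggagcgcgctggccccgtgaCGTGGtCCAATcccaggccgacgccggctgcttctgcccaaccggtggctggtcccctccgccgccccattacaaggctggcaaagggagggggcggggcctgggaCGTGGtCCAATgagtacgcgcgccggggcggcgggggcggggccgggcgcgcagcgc
CALR, chr19:12938359-12938577, plus strand: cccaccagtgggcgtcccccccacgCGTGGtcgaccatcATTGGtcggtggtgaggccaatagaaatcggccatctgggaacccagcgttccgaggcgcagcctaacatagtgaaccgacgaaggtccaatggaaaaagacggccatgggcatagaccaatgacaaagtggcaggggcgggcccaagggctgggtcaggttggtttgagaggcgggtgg
SDF2L1, chr22:21642052-21642301, plus strand: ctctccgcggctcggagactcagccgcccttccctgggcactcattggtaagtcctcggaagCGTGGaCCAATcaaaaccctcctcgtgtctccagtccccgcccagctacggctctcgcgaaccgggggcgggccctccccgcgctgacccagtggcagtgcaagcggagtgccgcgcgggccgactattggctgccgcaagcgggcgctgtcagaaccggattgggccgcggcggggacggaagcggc
For HSP90B1 the whole window lies inside transcripts of GENCODE, so its elements are given alone.
HSP90B1, chr12:103930216-103930234, plus strand: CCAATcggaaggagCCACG
HSP90B1, chr12:103930321-103930339, plus strand: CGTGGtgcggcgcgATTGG
In HSPA5 the element ended 47 bases before the RefSeq start site, in XBP1 33, in HERPUD1 106, in CALR 206, in ERO1B 224 and in SDF2L1 177. HYOU1 held a pair of ERSE-II elements at 174 and 68 bases, and HSP90B1 a pair of ERSE elements at 175 and 70. The XBP1 stretch overlaps the first exon of an uncharacterised gene on the opposite strand (ENSG00000226471).

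**Figure D1:**
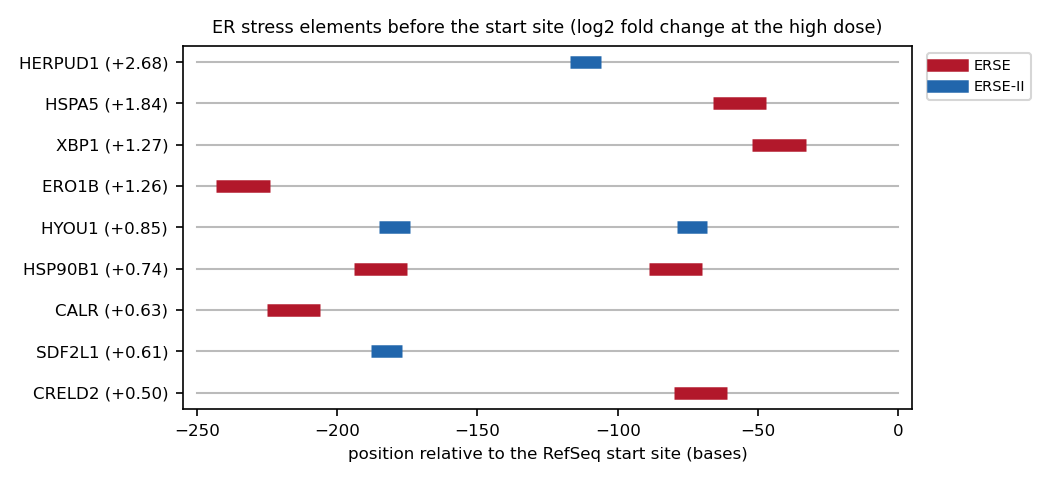
Positions of ERSE (red) and ERSE-II (blue) in the 250 bases before the RefSeq start site, for the 9 members that hold one, ordered from top to bottom by log2 fold change at the high dose, which is printed beside each name. HERPUD1 is at the top with 2.68 and CRELD2, the gene of the 9 that was not called, at 0.50.

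A shorter element bound by XBP1, UPRE, was searched as TGACGTGG and stood before HYOU1 and DNAJC10, against 0.685% of all promoters. In HYOU1 it shares letters with the farther ERSE-II. The element bound by ATF4 and its partners, CARE, was searched as TGATGNAA and stood before HERPUD1 alone among the members, against 3.19% of all promoters. All of these elements, ERSE and ERSE-II included, are exact matches of letters in a window and were not tested as binding sites. Forms of an element with a changed letter were not counted or marked.

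Depth was similar in all groups, with total counts between 18863852 and 24200565 per library. The label of the cells was checked against 10 astrocyte and glioma markers, of which 5 were expressed: VIM, CD44, SOX9, SLC1A3 and NES. AQP4 was at 0, and GFAP, S100B, SOX2 and ALDH1L1 were at normalised counts of at most 5.26 in any library. The summed level of the 10 markers was 144280 to 152080 with the vehicle and 152310 to 154030 at the high dose. That sum is mostly VIM and CD44, which moved apart. VIM rose from 88412 ± 4033 to 108048 ± 1073 (SD, n = 3) and CD44 fell from 56908 ± 802 to 43678 ± 518. SLC1A3 fell from 690.1 ± 21.8 to 126 ± 4.28, NES from 214 ± 11.6 to 64.7 ± 7.21 and SOX9 from 1434 ± 47.2 to 1206 ± 64.5. By DESeq2 adjusted p under 0.05, 1 of the 5 expressed markers rose and 4 fell. Of other cell types, the markers CDX2 and CD3E were at 0, 2 of 5 epithelial and 2 of 5 immune markers were expressed, and KRT18 fell from 4600.1 ± 110.03 to 1575 ± 68.9. The summed epithelial level was 4861 to 5073 with the vehicle and 1797 to 1888 at the high dose. The summed neuronal level, with 3 of 5 markers expressed, was 3445 to 3631 and 1739 to 1754. Of these 3 markers, SNAP25 fell from 704 ± 20.4 to 167 ± 13.6 and TUBB3 from 2212 ± 73.7 to 707 ± 29.0. SYT1 rose from 638 ± 15.4 to 868 ± 21.8. The summed immune level was 3081 to 3252 with the vehicle and 3918 to 4201 at the high dose. Its 2 expressed markers moved apart: CD68 rose from 2864 ± 91.0 to 3953 ± 153, and PTPRC fell from 275 ± 15.6 to 84.8 ± 19.8. The summed endothelial level, with 1 of 4 markers expressed, was 575 to 604 and 616 to 675. The part of these shifts in the results below was not tested.

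As a group, the ER folding and ERAD genes took a larger share of the RNA at each higher dose. They held 1.82% ± 0.0164 (SD, n = 3) of all counts with the vehicle, 1.91% ± 0.0259 at 20 µg/mL, 2.21% ± 0.000683 at 100 µg/mL and 3.10% ± 0.0507 at 500 µg/mL, with no overlap between groups. HSPA5 alone took 0.367% ± 0.00281, 0.407% ± 0.00666, 0.614% ± 0.00737 and 1.22% ± 0.0396 in the same order. The median log2 fold change of the 45 members against vehicle was 0.06 at 20 µg/mL, 0.21 at 100 µg/mL and 0.49 at 500 µg/mL. Over the 15282 genes whose mean normalised count reached 10 it was 0.00 at each. The scaling of DESeq2 sets the typical gene near 0, so that value follows from the scaling. With scaling by total counts the members' medians were 0.02, 0.10 and 0.38 in the same order. Those of the 15282 genes were then -0.03, -0.11 and -0.11. A normalised count is a gene's count divided by the library's size factor. It gives a level relative to the rest of that library's RNA, and fewer cells of a kind cannot be told apart from less RNA per cell.

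A differentially expressed gene (DEG), or called gene, had a DESeq2 adjusted p under 0.05 and a fold change over 1.5 in either direction. At the high dose 19 of the 45 members were called higher, where 8.66% of 19453 tested genes were, and 0 were called lower, where 9.57% of tested genes were. Since most members are well expressed, the share among genes whose mean normalised count reached 100 was also taken: 18 of the 44 members with that level were called higher, against 9.83%. By adjusted p alone, 37 members rose (23.9% of tested genes) and 3 fell (22.6%), or 36 and 6 with scaling by total counts. The percentages belong to the DESeq2 scaling alone. Those under scaling by total counts were not counted, here or in the comparisons below. In 37 members every high dose library lay above every vehicle library, which held for 30.6% of tested genes. The members were chosen with earlier results of these data known, so these contrasts describe them and test nothing.

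At the medium dose 4 members were called higher, against 2.34% of tested genes. These were HERPUD1, DNAJB9, HSPA5 and ERN1. By adjusted p alone 30 members rose (15.1% of tested genes) and 3 fell (14.5%), or 20 and 8 with scaling by total counts. At the low dose 0 members were called, against 0.0967% of tested genes called higher, while by adjusted p alone 12 of the 44 members tested rose (2.05%) and 0 fell (1.24%), or 9 and 2 with scaling by total counts. The 12 were CALR, CANX, HERPUD1, HSP90B1, HSPA5, HYOU1, MANF, PDIA3, PDIA4, PDIA6, SEL1L and XBP1. DERL3 had no adjusted p at that dose, because the filter of DESeq2 left out genes with a mean under 263.4.

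Between neighbouring doses the members rose as well. From the low to the medium dose 3 members were called higher (1.35% of tested genes), namely HERPUD1, HSPA5 and ERN1. By adjusted p alone 29 rose (9.29%) and 1, CREB3L2, fell (9.58%), which became 18 and 3 when libraries were scaled by total counts. From the medium to the high dose 11 members were called higher (4.58%), 35 rose by adjusted p alone (21.1%) and 2 fell (19.8%). The steps share the medium dose libraries, and the comparisons with vehicle share the vehicle libraries. There were 26 members that passed the test upward at both steps. The share of all tested genes that did so was not counted, so this number describes the members alone. Across the 4 groups, 41 of 45 members differed by the likelihood ratio test of DESeq2 (adjusted p under 0.05), against 45.8% of tested genes. In all, 20 members were called in at least 1 comparison and are given below with the value in every library, by their role, and 25 were called in none. Of these 25, FKBP14 is given in the same way, as the gene with the largest change of its role group.

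**Figure D2:**
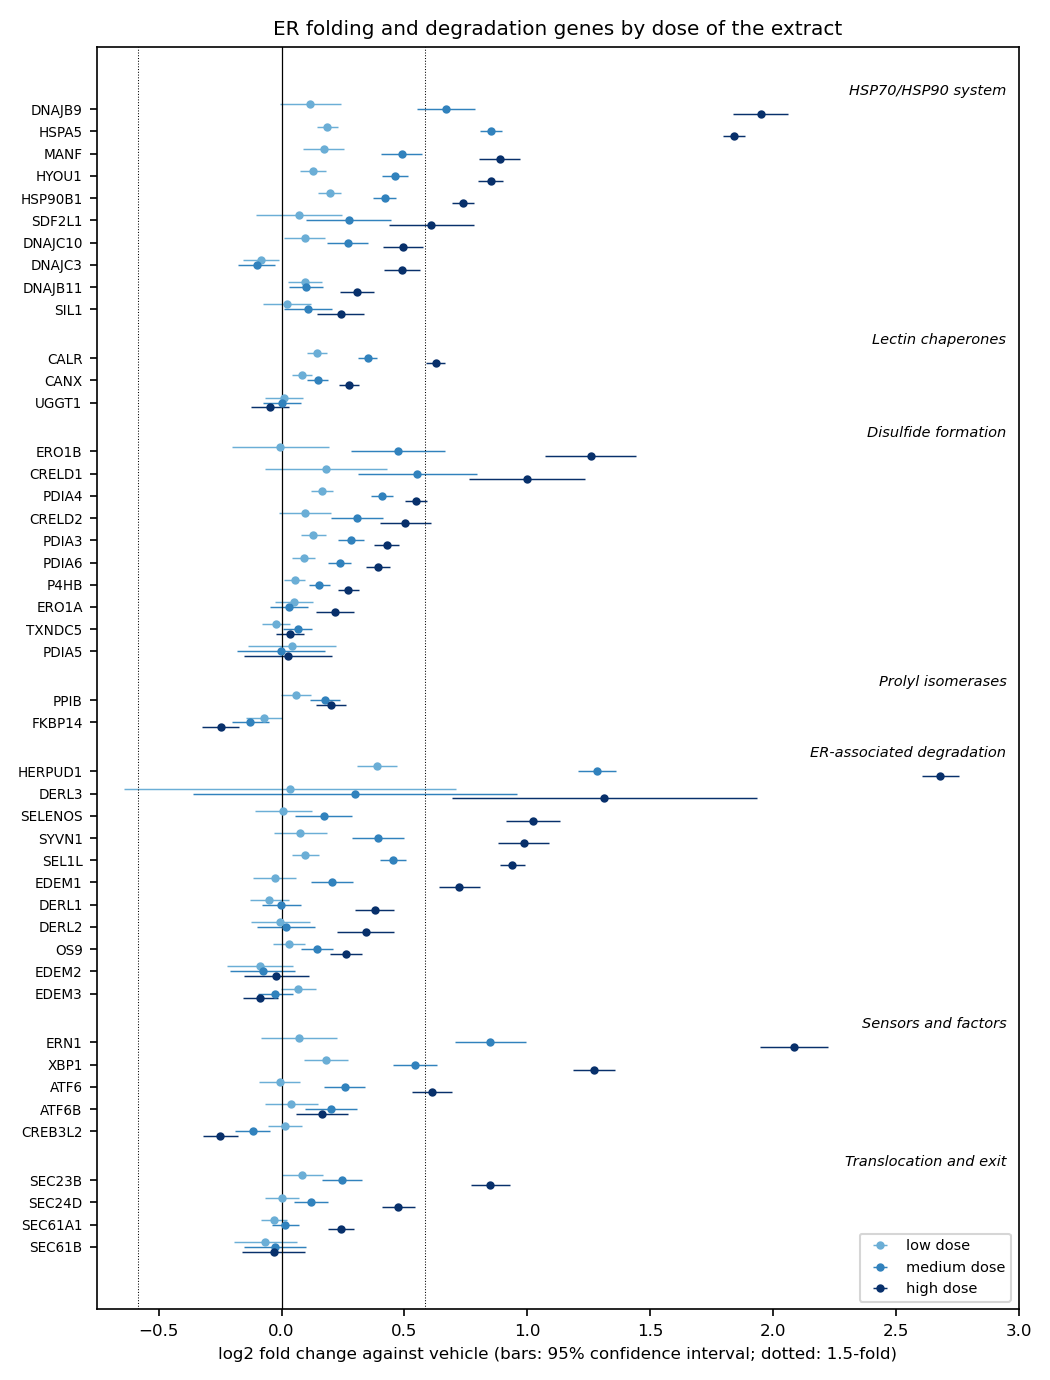
Log2 fold change against vehicle of all 45 members at the low (light), medium (middle) and high (dark) dose, grouped by role, with bars for the 95% confidence interval of the DESeq2 fit and dotted lines at 1.5-fold. The high dose points of 19 members lie to the right of the upper dotted line, and no member lies to the left of the lower one.

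The HSP70 and HSP90 system of the ER was higher throughout at the high dose: its 10 genes all rose by adjusted p, 6 of them past 1.5-fold, with a median log2 fold change of 0.67. HSPA5 (ENSG00000044574, chr9:125234853-125241382, minus strand), the HSP70 of the ER, had the highest level per kilobase of transcript of all members with the vehicle. Its normalised counts were 74724, 73372 and 74842 with vehicle, 83917, 85771 and 83953 at 20 µg/mL, 135401, 135585 and 131660.1 at 100 µg/mL and 269728, 272080.2 and 257391 at 500 µg/mL. No group overlapped another, and each dose lay above the one before it. HSPA5 was 1.14-fold higher at the low dose (0.19 ± 0.0223 as log2 fold change ± SE, adjusted p by DESeq2 3.94e-14), 1.81-fold higher at the medium dose (log2 fold change 0.85, SE 0.0222) and 3.58-fold higher at the high dose (log2 fold change 1.84, SE 0.0221). The DESeq2 adjusted p of the 2 higher doses is listed at 0, below the smallest value the software stores. HYOU1 (ENSG00000149428, chr11:119044188-119057227, minus strand), the large HSP70-like partner that exchanges the nucleotide of HSPA5, had 9757, 9731 and 9799.6 with vehicle, 10489.8, 10860.01 and 10646 at 20 µg/mL, 13243, 13717 and 13351 at 100 µg/mL and 17580.3, 17096 and 18171 at 500 µg/mL. It stepped up at every dose without overlap and was 1.80-fold higher at the high dose (0.85 ± 0.0261 as log2 fold change ± SE, adjusted p by DESeq2 5.02e-231).

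The J-domain co-chaperones, which feed chains to HSPA5 and start its ATP cycle, moved unequally. DNAJB9 (ENSG00000128590, chr7:108569867-108574850, plus strand) had 723, 682 and 671 with vehicle, 763, 753 and 736 at 20 µg/mL, 1069, 1188 and 1042 at 100 µg/mL and 2661, 2689 and 2669 at 500 µg/mL. The low dose libraries lay just above the vehicle without passing the test (log2 fold change 0.12, DESeq2 adjusted p 0.388), and from there the gene rose 1.59-fold at the medium dose (0.67 ± 0.0608 as log2 fold change ± SE, adjusted p by DESeq2 2.33e-26) and 3.86-fold at the high dose (1.95 ± 0.0576 as log2 fold change ± SE, adjusted p by DESeq2 1.23e-248). DNAJC3 (ENSG00000102580, chr13:95677139-95794988, plus strand), also known as an inhibitor of eIF2alpha kinases, had 4177, 4057 and 3971 with vehicle, 4009.9, 3811 and 3697 at 20 µg/mL, 3913, 3817 and 3659.9 at 100 µg/mL and 5658, 5884 and 5596 at 500 µg/mL. Here the medium dose libraries were all below the vehicle libraries (-0.10 ± 0.0382 as log2 fold change ± SE, adjusted p by DESeq2 0.0323) and the high dose libraries above all others. DNAJC3 stayed short of 1.5-fold against vehicle (0.49 ± 0.0374 as log2 fold change ± SE, adjusted p by DESeq2 5.64e-38) and was called against the medium dose, at 1.51-fold (0.59 ± 0.0376 as log2 fold change ± SE, adjusted p by DESeq2 9.25e-54). That call was lost without high replicate 2 (log2 fold change 0.57) or medium replicate 3 (0.56). DNAJB11 and DNAJC10, the latter a disulfide reductase, rose at the high dose with log2 fold changes of 0.31 and 0.49, both short of 1.5-fold.

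Of the other members of this system, HSP90B1 (ENSG00000166598, chr12:103930107-103953931, plus strand), the HSP90 of the ER (GRP94), had 31898, 31659 and 30740.2 with vehicle, 34917, 35814 and 37239 at 20 µg/mL, 41966, 41843 and 42312 at 100 µg/mL and 51925, 52986 and 52339 at 500 µg/mL. Its groups followed the dose with no overlap, and it was 1.67-fold higher at the high dose (0.74 ± 0.0233 as log2 fold change ± SE, adjusted p by DESeq2 1.07e-218). MANF (ENSG00000145050, chr3:51385291-51389397, plus strand), a secreted cofactor of HSPA5, had 3394, 3184 and 3239.8 with vehicle, 3439.5, 3703 and 3912 at 20 µg/mL, 4689, 4577 and 4509 at 100 µg/mL and 6265, 6022 and 5877 at 500 µg/mL. It also rose at each dose, to 1.85-fold at the high dose (0.89 ± 0.0422 as log2 fold change ± SE, adjusted p by DESeq2 2.64e-96). SDF2L1 (ENSG00000128228, chr22:21642302-21644299, plus strand), which works in a complex with DNAJB11, had 914, 1149 and 1193 with vehicle, 1143, 1288 and 987 at 20 µg/mL, 1382, 1344 and 1211 at 100 µg/mL and 1681, 1651 and 1639 at 500 µg/mL. Its vehicle and low dose libraries overlapped, and the high dose libraries lay above all others. SDF2L1 was 1.53-fold higher (0.61 ± 0.0883 as log2 fold change ± SE, adjusted p by DESeq2 3.10e-11), and it fell short of 1.5-fold without vehicle replicate 1 (log2 fold change 0.50). SIL1, another exchange factor of HSPA5, rose least in the group (0.24 on the log2 scale).

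The lectin chaperones bind the sugar chains of folding glycoproteins. CALR (ENSG00000179218, chr19:12938578-12944489, plus strand), the soluble calreticulin, was second to HSPA5 in level per kilobase. It had 33579, 33311 and 32129 with vehicle, 36411, 36374 and 36514 at 20 µg/mL, 42577, 41754 and 41885 at 100 µg/mL and 51082, 51762 and 50049.6 at 500 µg/mL. The libraries of each dose lay above those of the dose before, and the rise reached 1.54-fold (0.63 ± 0.0206 as log2 fold change ± SE, adjusted p by DESeq2 8.02e-202). The membrane-bound CANX rose short of the fold threshold (0.27 ± 0.0212 as log2 fold change ± SE, adjusted p by DESeq2 4.00e-37), from 47869 ± 762 to 57919.7 ± 734 normalised counts (SD, n = 3). UGGT1, which sends unfolded glycoproteins back to both, did not pass the test, with 3939 ± 123 and 3816 ± 192 normalised counts and a 95% confidence interval of -0.12 to 0.03 for the log2 fold change.

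Among 10 genes of disulfide formation, 2 were called and 8 rose by adjusted p, with a median log2 fold change of 0.41. ERO1B (ENSG00000086619, chr1:236214681-236282019, minus strand), an oxidase that recharges the disulfide isomerases, had 279, 266 and 258 with vehicle, 258, 294 and 249 at 20 µg/mL, 364, 373 and 379 at 100 µg/mL and 614, 668 and 636 at 500 µg/mL. Vehicle and low dose overlapped, while medium and high dose libraries stood above both. ERO1B was 2.39-fold higher at the high dose (1.26 ± 0.0935 as log2 fold change ± SE, adjusted p by DESeq2 6.40e-40) and 1.72-fold higher than at the medium dose (0.78 ± 0.0899 as log2 fold change ± SE, adjusted p by DESeq2 5.14e-17). Its paralog ERO1A rose from 2916 ± 85.5 to 3392 ± 114 (SD, n = 3; log2 fold change 0.22, SE 0.0391). CRELD1 (ENSG00000163703, chr3:9933793-9945413, plus strand), a membrane-bound relative of CRELD2, had 183, 192 and 207 with vehicle, 214, 193 and 253 at 20 µg/mL, 284, 276 and 294 at 100 µg/mL and 346, 407 and 407 at 500 µg/mL. Low dose libraries overlapped the vehicle, and the high dose libraries were 2.00-fold higher (1.00 ± 0.120 as log2 fold change ± SE, adjusted p by DESeq2 7.96e-16). Of its exon bases, 30.0% overlap PRRT3 on the other strand, and whether counting used the strand is not stated, so reads of the pair may not be separated.

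The disulfide isomerases, which form and reshuffle the bonds, rose short of the fold threshold or did not pass the test. P4HB, PDIA3, PDIA4 and PDIA6 had log2 fold changes of 0.27, 0.43, 0.55 and 0.39 at the high dose, all past the test. PDIA4 came nearest, with 14091 ± 110.2 normalised counts with the vehicle and 20603 ± 295 at the high dose (SD, n = 3), 1.46-fold higher. PDIA6 shares 25.2% of its exon bases with ATP6V1C2 on the other strand. CRELD2 rose 1.42-fold (log2 fold change 0.50, SE 0.0527). TXNDC5 and PDIA5 did not pass the test, with intervals of -0.02 to 0.09 and -0.15 to 0.21 for the log2 fold change, and TXNDC5 was well expressed, at 13227 ± 37.2 with the vehicle and 13542 ± 257 at the high dose.

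The prolyl isomerases, which turn the bonds before proline, moved apart. FKBP14 (ENSG00000106080, chr7:30010587-30026702, minus strand), an isomerase of collagen folding, had 2569.96, 2667 and 2611 with vehicle, 2518, 2492 and 2457 at 20 µg/mL, 2373, 2424 and 2391 at 100 µg/mL and 2219, 2174 and 2219.5 at 500 µg/mL. Each dose lay below the one before it without overlap, and the gene fell by 0.25 on the log2 scale at 500 µg/mL (SE 0.0380, DESeq2 adjusted p 3.99e-10), short of 1.5-fold. PPIB, cyclophilin B, rose from 10212 ± 289.6 to 11735 ± 513 (log2 fold change 0.20, SE 0.0314). It shares 26.6% of its exon bases with SNX22 on the other strand.

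ERAD held the member with the largest change. Of its 11 genes 6 were called higher at the high dose, 9 rose by adjusted p and 1 fell, with a median log2 fold change of 0.72. HERPUD1 (ENSG00000051108, chr16:56932142-56944864, plus strand), a membrane protein that gathers the ubiquitin ligase complex, had 1661, 1573 and 1605 with vehicle, 2057, 2248 and 2028 at 20 µg/mL, 3883, 4016 and 3866 at 100 µg/mL and 10324, 10461 and 10216 at 500 µg/mL. Every group stood clear of the others. HERPUD1 was 1.31-fold higher at the low dose (0.39 ± 0.0416 as log2 fold change ± SE, adjusted p by DESeq2 1.12e-17), 2.43-fold at the medium dose (1.28 ± 0.0397 as log2 fold change ± SE, adjusted p by DESeq2 7.60e-226) and 6.41-fold at the high dose (2.68 ± 0.0383 as log2 fold change ± SE, adjusted p by DESeq2 listed at 0). The step from low to medium dose was 0.89 and the step from medium to high dose 1.40 on the log2 scale.

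The ligase itself and its scaffold also rose. SYVN1 (ENSG00000162298, chr11:65121780-65134532, minus strand), the ubiquitin ligase HRD1, had 1368, 1356 and 1364 with vehicle, 1481, 1408 and 1422 at 20 µg/mL, 1663, 1881 and 1817 at 100 µg/mL and 2541, 2715 and 2833 at 500 µg/mL. Its groups lay in order of dose without overlap, and the high dose was 1.98-fold higher (0.99 ± 0.0529 as log2 fold change ± SE, adjusted p by DESeq2 8.55e-76). Against the medium dose it was 1.51-fold higher (0.59 ± 0.0519 as log2 fold change ± SE, adjusted p by DESeq2 9.26e-29), a call that was lost without high replicate 3 (log2 fold change 0.56) or medium replicate 1 (0.55). SEL1L (ENSG00000071537, chr14:81471547-81533853, minus strand), the scaffold that holds the ligase to its substrates, had 6227, 6007 and 5949.9 with vehicle, 6550.1, 6564 and 6333 at 20 µg/mL, 8268, 8458 and 8191 at 100 µg/mL and 11660.02, 11659.9 and 11547 at 500 µg/mL. It too rose at each dose, to 1.92-fold (0.94 ± 0.0265 as log2 fold change ± SE, adjusted p by DESeq2 1.91e-272). SELENOS (ENSG00000131871, chr15:101270817-101277500, minus strand), a selenoprotein that links the complex to the p97 ATPase, had 833, 834 and 819 with vehicle, 873, 822 and 803 at 20 µg/mL, 949, 934 and 919 at 100 µg/mL and 1653, 1725 and 1673 at 500 µg/mL. Most of that rise lay in the last step: SELENOS was higher by 0.17 ± 0.0586 (log2 fold change ± SE) at 100 µg/mL (adjusted p by DESeq2 0.0150) and by 1.02 ± 0.0556 at 500 µg/mL (adjusted p 5.29e-74), with 0.85 between those doses.

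The EDEM proteins trim mannose from glycoproteins bound for ERAD, and their genes differed in direction. EDEM1 (ENSG00000134109, chr3:5187646-5219958, plus strand) had 2527, 2465 and 2444 with vehicle, 2483, 2505 and 2299.95 at 20 µg/mL, 3002, 2870.4 and 2719 at 100 µg/mL and 4156, 4131 and 3987 at 500 µg/mL. Vehicle and low dose overlapped, and the high dose was 1.65-fold higher (0.72 ± 0.0428 as log2 fold change ± SE, adjusted p by DESeq2 2.04e-62). EDEM3 fell by 0.09 on the log2 scale (SE 0.0366, DESeq2 adjusted p 0.0394), from 2845 ± 58.6 to 2679.8 ± 21.0 (SD, n = 3), and EDEM2 did not pass the test, with an interval of -0.15 to 0.11. Of the derlins, which form part of the channel out of the ER, DERL1 and DERL2 rose short of 1.5-fold (0.38 and 0.34 on the log2 scale). DERL3 (ENSG00000099958, chr22:23834503-23839128, minus strand) had few counts: 22.5, 24.5 and 20.8 with vehicle, 19.2, 27.5 and 23 at 20 µg/mL, 23.2, 23.3 and 36.7 at 100 µg/mL and 61.4, 57.7 and 50.5 at 500 µg/mL. Its vehicle, low and medium dose libraries overlapped and the high dose libraries were 2.49-fold higher (1.31 ± 0.317 as log2 fold change ± SE, adjusted p by DESeq2 0.000116). Of its exon bases, 77.0% overlap SMARCB1 on the other strand, so its reads may not be separated from those of that gene. OS9, a lectin that hands substrates to SEL1L, rose by 0.26 (SE 0.0325), and 16.6% of its exon bases overlap genes on the other strand.

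Of 5 sensors and factors, 3 were called higher at the high dose. ERN1 (ENSG00000178607, chr17:64039080-64130819, minus strand), the sensor and RNase IRE1, was among the members lowest in counts per kilobase and had 375, 428 and 388 with vehicle, 443, 413 and 398 at 20 µg/mL, 744, 691 and 721 at 100 µg/mL and 1712, 1714 and 1645 at 500 µg/mL. Vehicle and low dose overlapped, and both higher doses stood apart. The rise was 1.80-fold at the medium dose (0.85 ± 0.0747 as log2 fold change ± SE, adjusted p by DESeq2 3.59e-28) and 4.25-fold at the high dose (2.09 ± 0.0708 as log2 fold change ± SE, adjusted p by DESeq2 9.08e-189). XBP1 (ENSG00000100219, chr22:28794555-28800597, minus strand), the target of its splicing, had 2092, 1938 and 2096 with vehicle, 2424, 2299 and 2209 at 20 µg/mL, 3102, 2882 and 2935 at 100 µg/mL and 4789, 4927 and 5058 at 500 µg/mL. Its groups did not overlap, and it was higher by 0.18 ± 0.0461 (log2 fold change ± SE) at 20 µg/mL (adjusted p by DESeq2 0.00623), 0.54 ± 0.0454 at 100 µg/mL (adjusted p 6.49e-31) and 1.27 ± 0.0443, or 2.41-fold, at 500 µg/mL (adjusted p 8.04e-179). ATF6 (ENSG00000118217, chr1:161766298-161977574, plus strand) had 1673, 1675 and 1627 with vehicle, 1641, 1661 and 1652 at 20 µg/mL, 1983, 1987 and 1975 at 100 µg/mL and 2501, 2571 and 2535 at 500 µg/mL. Low dose libraries lay among the vehicle libraries, and the high dose was 1.53-fold higher (0.61 ± 0.0409 as log2 fold change ± SE, adjusted p by DESeq2 2.11e-49), just past the fold threshold. Its relative ATF6B rose by 0.16 (SE 0.0541). CREB3L2, a related membrane-bound factor of the secretory pathway, fell by 0.25 on the log2 scale (SE 0.0361, DESeq2 adjusted p 3.77e-11), from 5336 ± 85.3 to 4495 ± 229.9.

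Of 4 genes of entry to and exit from the ER, 1 was called. SEC23B (ENSG00000101310, chr20:18507520-18561415, plus strand), an inner coat subunit of the COPII vesicles that leave the ER, had 2047, 1997 and 1972 with vehicle, 2045, 2163 and 2171 at 20 µg/mL, 2299, 2407 and 2423 at 100 µg/mL and 3553, 3571 and 3712 at 500 µg/mL. Low dose and vehicle overlapped, and the high dose was 1.80-fold higher (0.85 ± 0.0406 as log2 fold change ± SE, adjusted p by DESeq2 1.61e-95). Against the medium dose it was 1.52-fold higher (0.60 ± 0.0400 as log2 fold change ± SE, adjusted p by DESeq2 1.30e-49), and that call was lost without high replicate 3 (log2 fold change 0.58) or medium replicate 1 (0.58). SEC24D, a cargo-binding coat subunit, and SEC61A1, the channel through which chains enter, rose by 0.48 and 0.24. SEC61B, a small subunit of that channel, did not pass the test, with an interval of -0.16 to 0.10.

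**Figure D3:**
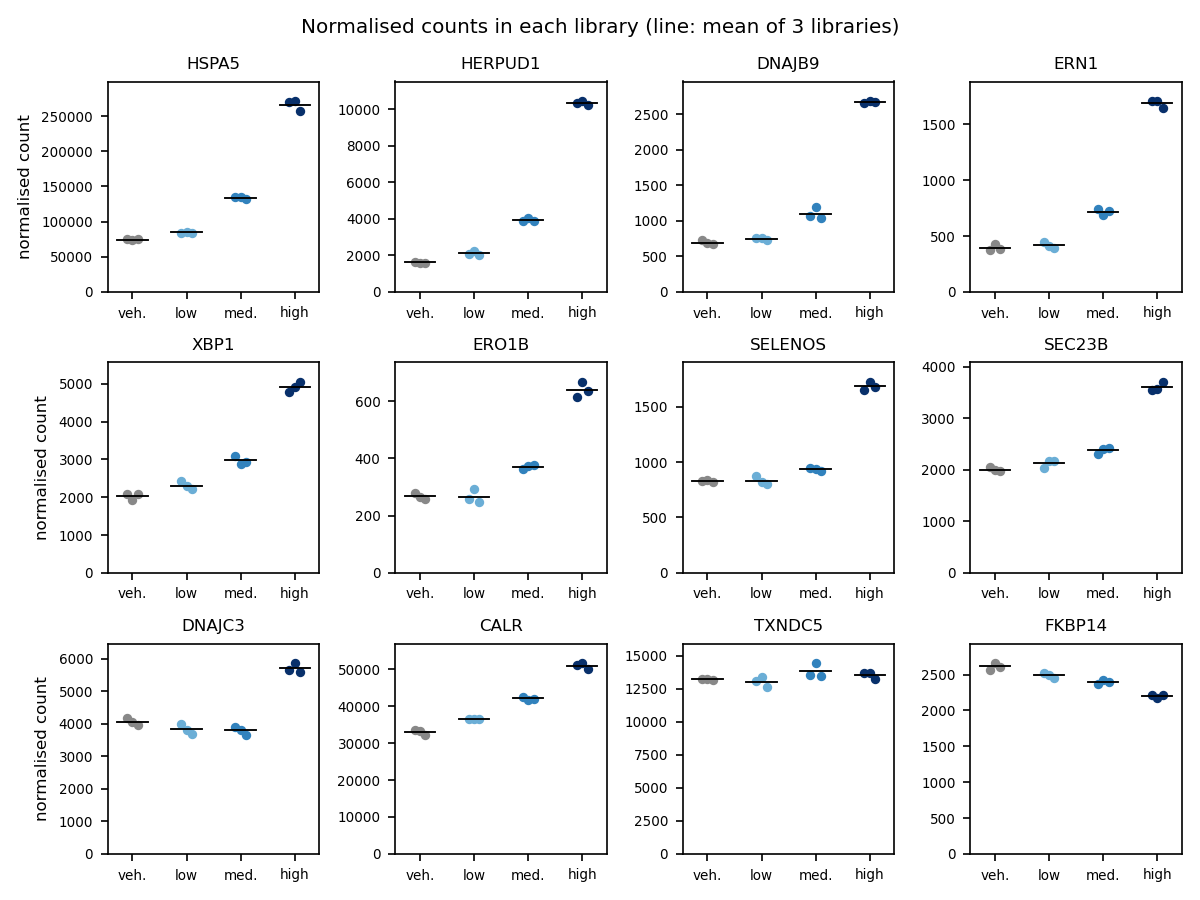
Normalised counts of 12 members in each library by dose, with a line at the mean of 3 libraries and each vertical axis starting at 0. HSPA5, HERPUD1, DNAJB9, ERN1 and XBP1 step up to the high dose, DNAJC3 is higher at the high dose only, TXNDC5 has means of 13227 with vehicle and 13542 at the high dose, and FKBP14 steps down.

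Over the whole list at the high dose, the 18 members that rose by adjusted p without being called had folds of 1.12 to 1.46, and 5 members did not pass the test: EDEM2, PDIA5, SEC61B, TXNDC5 and UGGT1. Just inside the fold threshold lay ATF6, SDF2L1 and CALR, at 1.53-fold, 1.53-fold and 1.54-fold, and just outside lay PDIA4 and CRELD2. When libraries were scaled by total counts, those 3 fell below the threshold at the high dose, and DNAJB9 did at the medium dose. All 19 members called at the high dose also passed the test against the medium dose, 18 of them rose by adjusted p at 100 µg/mL and 8 at 20 µg/mL. These comparisons reuse the high dose or vehicle libraries by which the 19 were chosen, so they are not independent of that choice. The matching shares among all genes called at the high dose were not counted. DERL3, with few counts, was the one that did not pass at the medium dose (0.30 ± 0.336 as log2 fold change ± SE, adjusted p by DESeq2 0.561). The members that passed at the high dose and not at the medium dose were DERL1, DERL2, DERL3, EDEM3, ERO1A, SEC61A1 and SIL1.

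Around these genes, 8 further lists with 142 genes in all were counted at the high dose. The PERK-ATF4 arm, the branch of the stress response that shuts down translation and raises ATF4, held the largest share of called genes among the 8 lists: 10 of 12 were called higher, with a median log2 fold change of 2.90. Of that arm, 10 genes were called at 100 µg/mL and 2 at 20 µg/mL. ATF3 rose from 38.3 ± 2.09 to 1014 ± 45.9 normalised counts (4.73 ± 0.165 as log2 fold change ± SE, adjusted p by DESeq2 8.44e-179), and TRIB3, a pseudokinase that ATF4 and DDIT3 induce, from 393 ± 46.3 to 7743 ± 40.9 (4.31 ± 0.0556 as log2 fold change ± SE, adjusted p by DESeq2 listed at 0). At the medium dose the list had a median of 1.86, beside 0.21 for the ER folding and ERAD genes. The sensor of the arm, EIF2AK3, rose short of 1.5-fold (0.46 ± 0.0725 as log2 fold change ± SE, adjusted p by DESeq2 1.90e-09). The activity of PERK does not show in mRNA levels, and whether PERK itself raised the genes of this list was not tested.

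The lists of neighbouring ER work held fewer called genes. In the translocon and signal peptide list 3 of 22 genes were called higher (median 0.19), led by SEC11C, a signal peptidase subunit (0.78), and SRPRA, the receptor of the signal recognition particle (0.61). Of 16 genes of N-glycosylation and glycan trimming 0 were called (median 0.14), and the largest changes were MOGS, a glucosidase (0.33), and OSTC, an oligosaccharyltransferase subunit (0.26). Of 31 other folding and retention genes, 1 was called higher, HSPA13, an HSP70-like protein of microsomes (1.04), and 1 lower, SERPINH1, the collagen chaperone HSP47 (-0.63). Scaled by total counts, 3 were called lower and the median of 0.07 turned to -0.04, while the medians of the translocon and N-glycosylation lists fell to 0.07 and 0.03. Of 22 other ERAD genes 0 were called, and their median of 0.02 turned to -0.10 under that scaling. UBE2J1, an ERAD ubiquitin-conjugating enzyme, and NGLY1, a glycanase, led them with 0.48 and 0.45. Set side by side, 6 of 11 ERAD members and 0 of 22 other ERAD genes were called, which was not tested as a difference.

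Of 16 other COPII and ER exit genes 3 were called higher (median 0.23), with MIA2, a cargo receptor at exit sites (1.37 ± 0.0621 as log2 fold change ± SE, adjusted p by DESeq2 2.09e-106), and PREB, the SEC12 exchange factor (0.63), in front. Of 10 other sensor and processing genes 1 was called lower, CREB3L1 (OASIS), which fell by 0.81 on the log2 scale from 5265 ± 131 to 3008 ± 85.6, and the next largest change was NFYC, a subunit of the factor that binds CCAAT (0.22). The cytosolic heat shock chaperones went the other way, with 0 of 13 genes called higher, 5 called lower and a median of -0.40. In edgeR 1 of them, CRYAB, was called higher, at 17.8 ± 2.25 and 30.7 ± 3.97 normalised counts (0.78 ± 0.355 as log2 fold change ± SE, adjusted p by DESeq2 0.0591). HSPA8, the constitutive HSP70 of the cytosol, fell from 23930.4 ± 486 to 10243 ± 289.6 (SD, n = 3; -1.22 ± 0.0361 as log2 fold change ± SE, adjusted p by DESeq2 3.17e-249). HSPA1A had a log2 fold change of -1.30, which is uncertain because its sequence is nearly identical to that of HSPA1B and reads may be split between them. Since the lists were drawn up with earlier results of these data known, their counts describe them and test nothing.

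**Figure D4:**
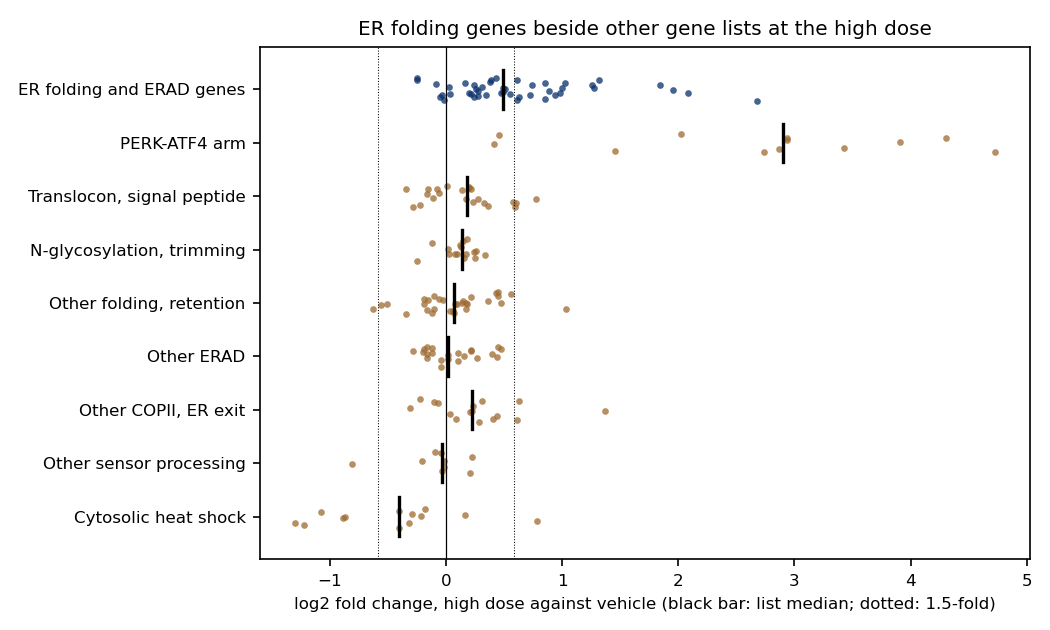
Log2 fold change at the high dose of each gene whose mean normalised count reached 10, for the ER folding and ERAD genes (blue) and 8 other lists (brown), with a black bar at each median and dotted lines at 1.5-fold. The median is 0.49 for the ER folding and ERAD genes, 2.90 for the PERK-ATF4 arm and -0.40 for cytosolic heat shock genes.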

How the data were processed

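RNA-seq libraries of SW1783 cells in 4 groups of 3 were analysed. Per the labels and the study's methods, the authors trimmed reads with Trim Galore 0.6.5, aligned them to GRCh38 with STAR 2.7.3a (the methods name other versions of both and write the build as hg19) and counted genes with RSEM 1.3.3. The deposited table holds expected counts per gene, which divide shared reads among genes; 8.75% of its values were not whole, and they were rounded here. Whether counting used the strand is not stated. Total counts of 18863852 to 24200565 gave a median SE of 0.0699 for the high dose log2 fold changes of genes with a mean of at least 100.

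Groups came from the sample titles and treatment labels. DESeq2 1.42.0 (R 4.3.3) fitted all 12 libraries by group, with Wald tests (two-sided) between groups and a likelihood ratio test over the 4 of them. Benjamini-Hochberg adjustment ran over all genes that passed independent filtering at 0.05. Replicate pairs differed by more than counting noise (chi-square per degree of freedom 1.99 to 3.55), and all were kept. Same-numbered libraries deviated together by over 0.1 in 5 of 18 pairs of libraries from different groups, against 0 of 36 pairs with different numbers. They did so in all 3 pairs of the low and medium dose (correlations 0.158, 0.124 and 0.193), so the numbers may pair those groups. The labels do not say so, and the main fit used no pairing. The scripts were tested on simulated data. Symbols and coordinates are from GENCODE v44 (GRCh38, 1-based), promoters from RefSeq.

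The members and gene lists were chosen with earlier results of these data known. Named were members called in any comparison or with the largest change of their role group, and the 2 largest changes of each other list among genes with a mean of at least 100. Alternatives were edgeR 4.0.16, other size factors, filters, call rules and group choices, a replicate block, and leaving out each library.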

Additional observations from a re-analysis of the deposited data

How the results depend on the processing

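Scaling by total counts moved the median of all genes by -0.11 on the log2 scale at the high, -0.11 at the medium and -0.03 at the low dose and by -0.08 from low to medium dose, and the members' medians became 0.377, 0.0960, 0.0213 and 0.0869. Under it, ATF6, CALR and SDF2L1 at the high dose (log2 fold changes 0.50, 0.51 and 0.50) and DNAJB9 at the medium dose (0.56) fell below 1.5-fold, DNAJB11 at the medium dose and CANX between low and medium dose changed sign, and the other COPII and the translocon lists each had 1 gene called higher (counts by adjusted p stand with the results). By adjusted p alone the calls in either direction were 40 at the high, 33 at the medium and 12 at the low dose, 37 from medium to high dose and 30 from low to medium dose. A test against the 1.5-fold threshold itself called 15 members at the high, 2 at the medium and 0 at the low dose, 6 from medium to high dose and 2 from low to medium dose. Leaving out each library in turn gave medians of 0.183 to 0.226 at 100 µg/mL, 0.0410 to 0.0732 at 20 µg/mL and 0.138 to 0.164 between them, and CRELD1 at the medium dose passed 1.5-fold without vehicle replicate 3 (0.60), as did DNAJB9 from low to medium dose without medium replicate 3 (0.59). Members called were then 18 to 19 at the high, 4 to 5 at the medium, 0 at the low dose, 9 to 11 from medium to high dose and 3 to 4 from low to medium dose. Beside these and the losses named with SDF2L1, DNAJC3, SYVN1 and SEC23B, no call by the fold and adjusted p rule changed for the members given by library when libraries were scaled by total counts or left out, or under TMM, size factors without mitochondrial genes, the count filter, other independent filtering, 2-group fits or edgeR. By adjusted p alone, edgeR found 9 members higher at the low dose and 31 at the medium dose. The causes were not tested.

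A replicate block gave 19, 4 and 0 called members at the high, medium and low dose, 11 from medium to high dose and 3 from low to medium dose, where the members' median was 0.159, and changed no call. Between other groups than low and medium, not every pair of same-numbered libraries deviated together by over 0.1, so no pairing was read from those numbers. Counts limit DERL3 most.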
